A study of Mus musculus with 12 samples.

Results

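Kruppel-like factors (KLFs) are transcription factors that bind GC-rich and CACCC sequences through zinc fingers at the end of the protein. The 10 members described here (Klf2, Klf3, Klf4, Klf6, Klf9, Klf10, Klf11, Klf12, Klf13 and Klf15) were found by their symbols in a liver gene table of 23849 symbols. Liver RNA was sequenced from 12 male C57BL/6J mice, 3 in each of 4 groups, described as 8 weeks old. All mice received a high-fat diet (HFD) for 6 weeks, and for the last 2 weeks a daily gavage at zeitgeber time (ZT) 11, where ZT counts hours from lights on. The vehicle groups were given drinking water, and the Libramed groups were given the fiber-based product Libramed, which the study calls Policaptil Gel Retard, at 20 mg/ml. A vehicle and a Libramed group were collected at ZT0 (vehicle ZT0, Libramed ZT0) and the others at ZT12 (vehicle ZT12, Libramed ZT12), shortly after the gavage. All 4 groups were on HFD, so no group shows KLF levels on a normal diet. With only 2 times of day, a change between ZT0 and ZT12 does not give the peak or trough of a rhythm. Since every gavage was at ZT11, time of day and time since the gavage cannot be told apart in such a change.

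KLFs differ in what they recruit to a gene and in where they act. KLF15 is known in liver as an activator of amino acid breakdown and of glucose production in fasting. KLF9, KLF10, KLF11 and KLF13 form a subfamily that can recruit the SIN3A corepressor, whereas KLF3 and KLF12 recruit the CtBP corepressors. KLF2 and KLF4 are best known from endothelial cells, where blood flow induces them, and KLF6 as a quickly induced factor in injury and stellate cell activation. Several family members, including KLF9, KLF10 and KLF15, have been described as outputs of the circadian clock.

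The libraries were read as FPKM, fragments scaled by transcript length and by mapped reads, which allows levels of different genes to be compared per length. FPKM summed to between 634683 and 759355 per library, and because no read totals were used the absolute depth is unknown. Albumin (Alb), the leading hepatocyte transcript, was listed at 0 in all 12 libraries, a failed estimate in this tissue, while 7 other hepatocyte markers were expressed in all libraries. The time labels were checked on 11 tested clock genes. Over both treatments 6 were higher and 4 lower at ZT12 with an adjusted p under 0.05, with Per3, known to be high toward the evening in mouse liver, at log2 fold change 2.07 and Arntl, known to be high toward dawn, at −1.50. 

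Klf15 dominated the family in liver. Its mean over the 12 libraries was 97.9 FPKM, 68.6% of the summed level of the 10 members. The next were Klf9 (12.1 FPKM), Klf10 (8.17), Klf3 (7.66) and Klf13 (7.50), followed by Klf2 (3.30), Klf11 (2.44), Klf12 (2.29), Klf6 (1.15) and Klf4 (0.266). The lowest Klf15 library, at 72.4 FPKM, lay far above the highest library of any other member, Klf10 at 17.7 FPKM, and the highest Klf4 library (0.434 FPKM) lay below the lowest Klf6 library (0.546 FPKM). Between these ends the ranges of all neighbors in the order overlapped. Klf13 moved from rank 5 of 10 at ZT0 in both treatments to rank 3 with vehicle and rank 2 with Libramed at ZT12, while with vehicle Klf3 (rank 3 to 5) and Klf12 (rank 8 to 6) moved as far.

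**Figure D1:**
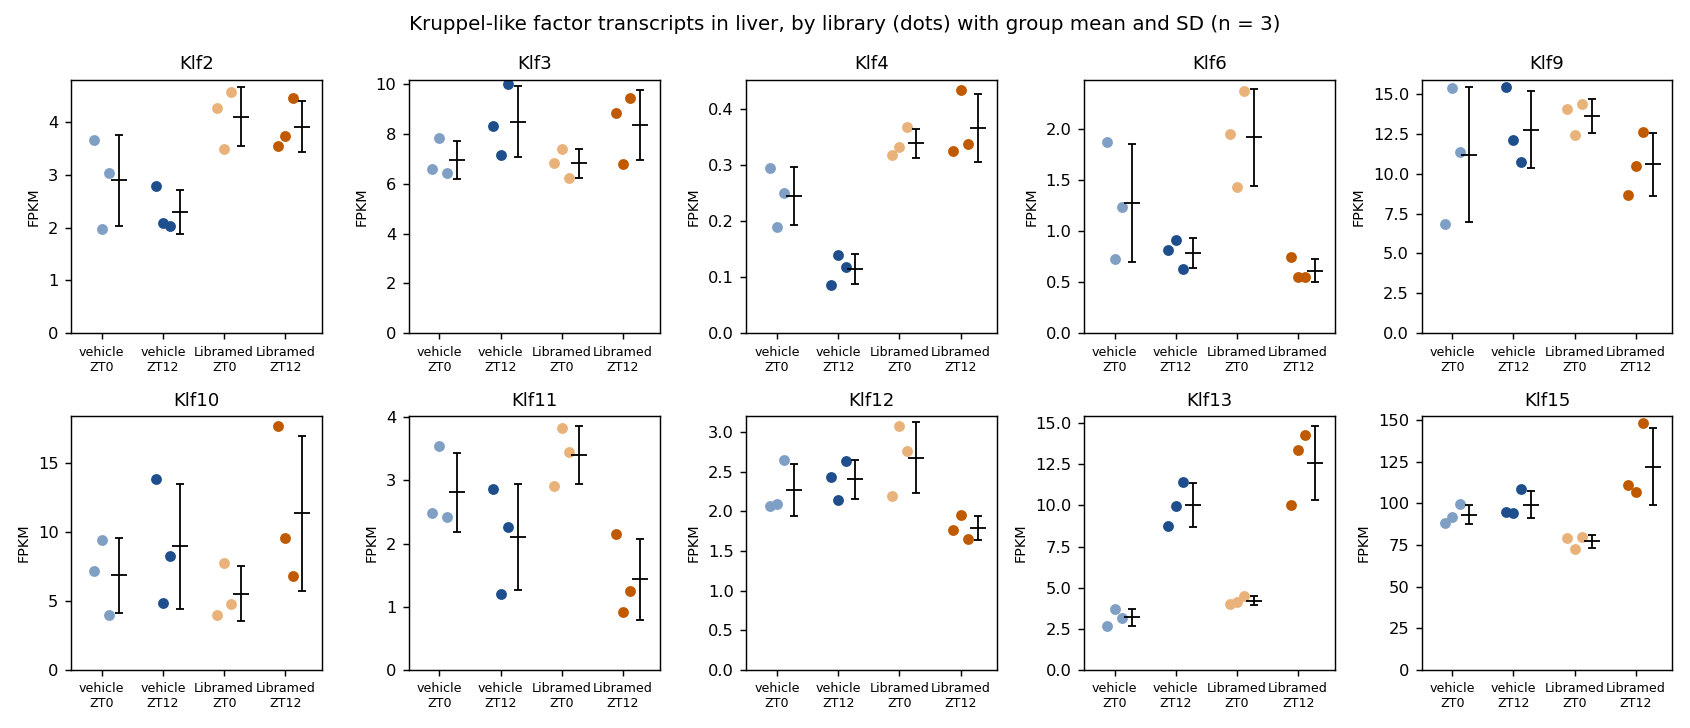
FPKM of each Kruppel-like factor (vertical axes, linear and from 0, with a different range for each gene) in the 4 groups of 3 mice. Dots are libraries, and the black marks give the group mean and SD. Klf13 is higher in all 6 ZT12 libraries than in any ZT0 library, and for Klf15 the 4 highest libraries are the 3 of Libramed ZT12 and 1 of vehicle ZT12 (109 FPKM).

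The remaining family served as background. Of 16 other KLF and SP genes in the table, 6 reached a mean of 1 FPKM and were tested (Klf1, Klf16, Sp1, Sp2, Sp3 and Sp5). Klf1, a red blood cell regulator, was present at 4.14 to 5.87 FPKM in the group means. Klf14, Klf17, Sp7 and Sp8 were listed at 0 in every library. Of the 10 members, 9 were tested, and only Klf4 fell below the minimum.

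Klf13, Klf15, Klf6 and Klf11 changed between ZT0 and ZT12 with an adjusted p under 0.05 in the test that used all 12 mice. The sequences just before their annotated starts are shown because these 4 genes were called between ZT0 and ZT12. The window shown is chr7:63938916-63939165 (minus strand) for Klf13, chr6:90462326-90462575 (plus strand) for Klf15, chr13:5861239-5861481 (plus strand) for Klf6 and chr12:24651121-24651273 (plus strand) for Klf11, from RefSeq on build GRCm38.p6 (mm10). Each window ends directly before the first base of its gene in GENCODE vM21, which shortens it to 243 bases for Klf6 and 153 bases for Klf11 against 250 for the others. Each sequence is written 5′ to 3′ on the strand of its gene. Capitals mark the E-box CACGTG, a sequence that CLOCK and BMAL1 are known to bind, and the GC box GGGCGG on either strand, which SP and KLF proteins are known to bind.
Klf13: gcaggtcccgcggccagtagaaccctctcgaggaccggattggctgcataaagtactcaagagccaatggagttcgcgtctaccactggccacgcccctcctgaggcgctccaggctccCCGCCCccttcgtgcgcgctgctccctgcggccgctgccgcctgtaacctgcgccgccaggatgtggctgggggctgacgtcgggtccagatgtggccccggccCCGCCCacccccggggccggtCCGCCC
Klf15: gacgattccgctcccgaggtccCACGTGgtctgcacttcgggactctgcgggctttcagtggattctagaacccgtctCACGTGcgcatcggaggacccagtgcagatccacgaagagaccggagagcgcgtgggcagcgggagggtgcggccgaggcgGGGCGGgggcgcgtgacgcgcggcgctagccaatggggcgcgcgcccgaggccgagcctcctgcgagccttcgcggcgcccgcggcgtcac
Klf6: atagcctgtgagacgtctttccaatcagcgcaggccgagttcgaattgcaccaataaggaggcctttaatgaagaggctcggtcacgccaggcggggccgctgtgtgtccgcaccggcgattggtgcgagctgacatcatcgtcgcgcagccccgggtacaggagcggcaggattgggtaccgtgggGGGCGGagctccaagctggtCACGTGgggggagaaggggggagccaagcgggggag
Klf11: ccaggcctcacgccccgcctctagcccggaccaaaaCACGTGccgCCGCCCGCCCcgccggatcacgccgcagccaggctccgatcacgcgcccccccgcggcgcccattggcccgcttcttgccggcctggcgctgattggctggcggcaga
Within 250 bases before the RefSeq start, Klf15 held 2 E-boxes, at 228 and 172 bases before it, whereas Klf6 and Klf11 held 1 each (43 and 214 bases before) and Klf13 held none. An E-box was present in 4 of the 9 members in the promoter table (Klf4, Klf6, Klf11 and Klf15), against 6.0% of 32851 promoters of the same length. A GC box was present in 7 of the 9, against 32.7% of all promoters. The motif TGACG, the half-site of a cAMP response element, was found in 6 of the 9 members and 17.8% of promoters, CCAAT in 5 and 33.8%, and CACCC in 6 and 52.0%. Neither AGGTCA, the core bound by ROR and REV-ERB receptors, nor ACANNNTGT, the core of a glucocorticoid receptor element, was found in any member, against 14.0% and 5.8% of promoters. Both strands were searched, an E-box reads the same on both, and no other motif overlap was removed. The windows shown held from 64.2% (Klf6) to 75.8% (Klf11) G and C, and the shares of all promoters were not matched for base composition. Such matches describe letters in a window and not binding.

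The comparison of ZT12 with ZT0 asks which KLF transcripts differ between the start of the active phase of mice and its end, within vehicle and within Libramed. Tests were run with limma on log2(FPKM + 1), a scale on which fold changes of low genes are understated, and a gene was called when its Benjamini-Hochberg adjusted p over all 9806 genes was under 0.05. In vehicle-treated mice 1 of 9 members was called (Klf13, higher), against 10.4% of all genes tested. In Libramed-treated mice 4 of 9 were called, Klf13 and Klf15 higher and Klf6 and Klf11 lower, against 12.4% of all genes. The study applied a cutoff of p under 0.05 to Cyber-T tests. With limma at that cutoff the counts were 1 of 9 against 27.4% with vehicle and 7 of 9 against 29.2% with Libramed. The vehicle count was 3 when vehicle ZT0 replicate 2 was left out and 2 when vehicle ZT12 replicate 2 was. The median log2 fold change of the 9 members was 0.09 with vehicle and −0.05 with Libramed, beside 0.01 over all genes in both. The interaction of time and treatment, given further on, is the test of whether these 2 changes differ.

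**Figure D2:**
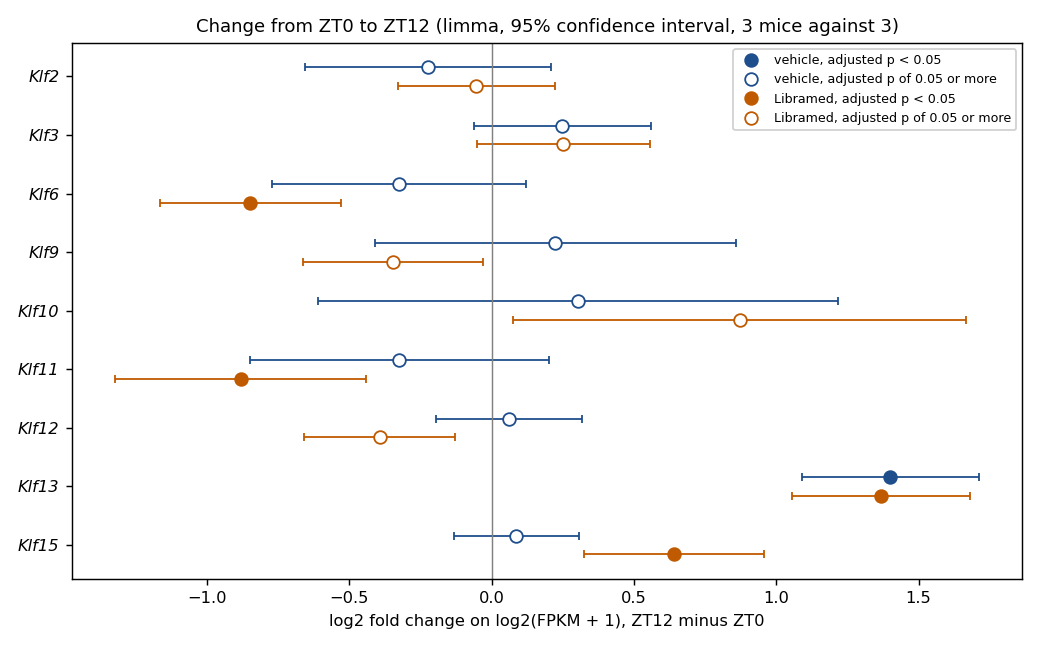
Log2 fold change on log2(FPKM + 1) from ZT0 to ZT12 (horizontal axis) for the 9 tested members, in vehicle (blue) and Libramed (orange) mice. Bars are 95% confidence intervals from limma with 3 mice against 3, and filled circles have an adjusted p under 0.05. Klf13 lies near 1.4 in both treatments (1.40 and 1.37), and Klf15, Klf6 and Klf11 are filled with Libramed only.

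Klf13, known for inducing the chemokine CCL5 in lymphocytes, showed the largest change from ZT0 to ZT12 of the tested members on log2(FPKM + 1). Vehicle ZT0 libraries measured 2.67, 3.72 and 3.16 FPKM, and vehicle ZT12 libraries 8.76, 9.96 and 11.4 FPKM. Libramed ZT0 libraries measured 3.98, 4.13 and 4.52 FPKM, and Libramed ZT12 libraries 10.04, 13.4 and 14.3 FPKM. All ZT12 values lay above all ZT0 values in both treatments, as groups did not overlap for 33.2% of all genes with vehicle and 34.9% with Libramed. The ratio of mean FPKM at ZT12 over ZT0 was 3.16 with vehicle and 2.99 with Libramed. As a ratio of means the fall of Klf6 with Libramed, at 3.14, was larger than this Libramed rise. The log2 fold change on log2(FPKM + 1) was 1.40 (SE 0.131, limma adjusted p = 0.00347) with vehicle and 1.37 (SE 0.133, limma adjusted p = 0.00235) with Libramed. Over both treatments it was 1.39 (SE 0.0934, limma adjusted p = 1.94e-06), and the exact permutation p within treatments, two-sided, was 0.005, the smallest that 400 arrangements allow. Over both treatments 4 of 9 members were called, against 29.7% of all genes, and 5 had p under 0.05, against 41.0%.

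The genes whose pattern over the 12 libraries was most like that of Klf13 were Upp2 (Pearson r = 0.982), Fhad1 (0.981) and Gm4737 (0.980). Upp2 is a uridine phosphorylase of liver. These values describe likeness over 12 libraries that share 2 times of day.

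Klf15, the activator of amino acid catabolism, measured 88.4, 91.9 and 99.5 FPKM in vehicle ZT0 libraries and 94.9, 94.1 and 109 FPKM in vehicle ZT12 libraries. In Libramed mice the values were 79.1, 72.4 and 79.8 FPKM at ZT0 and 111, 107 and 148 FPKM at ZT12. The vehicle groups overlapped, whereas the Libramed ZT0 libraries were all lower than the Libramed ZT12 libraries and also lower than all vehicle libraries. With Libramed the mean of 122 ± 22.9 FPKM (SD, n = 3) at ZT12 was 1.58 times the mean of 77.1 ± 4.05 FPKM at ZT0, a log2 fold change of 0.64 (SE 0.134, limma adjusted p = 0.0253). With vehicle the log2 fold change was 0.09 (95% interval −0.13 to 0.31, limma adjusted p = 0.598). Over both treatments Klf15 was higher at ZT12 by 0.36 (SE 0.113, limma adjusted p = 0.0295, exact permutation p = 0.02). These calls were close to the threshold. The Libramed call was lost without Libramed ZT0 replicate 1, 2 or 3 (limma adjusted p = 0.0656, 0.0780 and 0.0663). The call over both treatments was lost without these 3 libraries, without vehicle ZT12 replicate 3 and without Libramed ZT12 replicate 1, with limma adjusted p between 0.0502 and 0.0660. The high Libramed ZT12 replicate 3 did not decide the Libramed call, since the log2 fold change without it was 0.49 (limma adjusted p = 0.0350).

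Klf6, a zinc finger factor that many cell types induce quickly on injury, moved the other way. Libramed libraries measured 1.95, 1.43 and 2.38 FPKM at ZT0 and 0.742, 0.546 and 0.547 FPKM at ZT12. Vehicle libraries measured 1.88, 0.723 and 1.24 FPKM at ZT0 and 0.811, 0.914 and 0.628 FPKM at ZT12. The Libramed groups did not overlap, and vehicle ZT0 replicate 2 lay within the vehicle ZT12 range. The mean ratio of ZT0 over ZT12 was 3.14 with Libramed and 1.63 with vehicle. Klf6 fell by 0.85 on the log2 scale with Libramed (SE 0.134, limma adjusted p = 0.0108). Its log2 fold change with vehicle was −0.33 (95% interval −0.77 to 0.12, limma adjusted p = 0.312). Over both treatments Klf6 fell by 0.59 (SE 0.140, limma adjusted p = 0.00795, exact permutation p = 0.015). Klf6 reached the minimum mean of 1 FPKM only through ZT0, with means of 1.28 FPKM (vehicle) and 1.92 FPKM (Libramed). At ZT12 its means were 0.784 FPKM with vehicle and 0.612 FPKM with Libramed. With no minimum FPKM the limma adjusted p was 0.0447 with Libramed and 0.0164 over both treatments.

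Klf11, a repressor that works through SIN3A and is linked to insulin gene control, also fell. With Libramed the values were 2.91, 3.83 and 3.45 FPKM at ZT0 and 2.14, 0.908 and 1.25 FPKM at ZT12. With vehicle they were 2.49, 3.54 and 2.42 FPKM at ZT0 and 2.86, 1.20 and 2.26 FPKM at ZT12. Only the Libramed groups were separate. The log2 fold change with Libramed was −0.88 (SE 0.187, limma adjusted p = 0.0267), that with vehicle was −0.32 (95% interval −0.85 to 0.20, limma adjusted p = 0.399), and over both treatments Klf11 fell by 0.60 (SE 0.171, limma adjusted p = 0.0191, exact permutation p = 0.02). The Libramed call was lost without Libramed ZT0 replicate 1, 2 or 3 and without Libramed ZT12 replicate 2 or 3, with limma adjusted p between 0.0529 and 0.0865, while the call over both treatments was kept without any 1 library.

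The genes most like Klf6 over the 12 libraries included Nfyb (r = 0.971) and 3110052M02Rik (0.935). Those most like Klf11 included Brd8 (0.905) and Tgif1 (0.901). For Klf15 they were Tsc22d3 (0.933), Slc20a1 (0.933) and Smarcd2 (0.924). Tsc22d3 encodes GILZ, a protein strongly induced by glucocorticoids. Nfyb encodes a subunit of NF-Y, the factor that binds CCAAT.

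Klf12, Klf10 and Klf9 also passed p under 0.05 from ZT0 to ZT12 with Libramed and missed the adjusted threshold. Klf12, a CtBP-recruiting repressor, measured 2.19, 3.08 and 2.77 FPKM at ZT0 and 1.77, 1.96 and 1.65 FPKM at ZT12 with Libramed, without overlap (log2 fold change −0.39, SE 0.113, limma p = 0.00988, adjusted p = 0.0648, exact permutation p = 0.1). It was past the adjusted threshold without Libramed ZT0 replicate 1 (adjusted p = 0.0485, limma). With vehicle Klf12 overlapped, at 2.07 to 2.65 FPKM at ZT0 and 2.15 to 2.64 FPKM at ZT12.

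Klf10, a factor induced early by TGF-β, varied within each group by a wide margin. Its Libramed libraries measured 3.97, 7.77 and 4.79 FPKM at ZT0 and 17.7, 9.55 and 6.84 FPKM at ZT12, and its vehicle libraries 7.18, 9.39 and 4.002 FPKM at ZT0 and 13.8, 4.84 and 8.23 FPKM at ZT12. The groups overlapped in both treatments. The log2 fold change was 0.87 with Libramed (SE 0.338, limma adjusted p = 0.140) and 0.30 with vehicle (95% interval −0.61 to 1.22, limma adjusted p = 0.663).

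Klf9, a glucocorticoid- and thyroid hormone-induced factor, measured 14.1, 12.4 and 14.4 FPKM at Libramed ZT0 and 8.69, 10.5 and 12.6 FPKM at Libramed ZT12. These groups overlapped by 1 library each. The log2 fold change was −0.35 (SE 0.135, limma p = 0.0361, adjusted p = 0.140, exact permutation p = 0.2). Vehicle libraries ranged from 6.88 to 15.4 FPKM at ZT0 and from 10.7 to 15.5 FPKM at ZT12.

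Klf3, another CtBP-recruiting repressor, had nearly the same values in both treatments. It measured 6.45 to 7.82 FPKM at vehicle ZT0, 7.17 to 9.99 at vehicle ZT12, 6.22 to 7.40 at Libramed ZT0 and 6.79 to 9.45 at Libramed ZT12. Over both treatments its log2 fold change was 0.25 (SE 0.0917, limma p = 0.0180, adjusted p = 0.0573, exact permutation p = 0.045). It passed the adjusted threshold without vehicle ZT0 replicate 2 (adjusted p = 0.0424, limma), vehicle ZT12 replicate 2 (0.0351) or Libramed ZT12 replicate 2 (0.0223). No difference by time was detected for Klf2 (log2 fold change over both treatments −0.14, 95% interval −0.38 to 0.11, limma adjusted p = 0.391).

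The second question is whether Libramed altered KLF transcripts at a given time. No member was called at ZT0, at ZT12 or over both times, with adjusted p under 0.05 in 0.00%, 0.00% and 0.0204% of all genes. With p under 0.05 there were 2 of 9 members in each of the 3 comparisons, against 9.23%, 6.74% and 10.1% of all genes. These were Klf13 and Klf15 at ZT0, Klf2 and Klf12 at ZT12, and Klf2 and Klf13 over both times. Single libraries moved these counts. At ZT0 the count was 4 without vehicle ZT0 replicate 2, 0 without vehicle ZT0 replicate 3, and 1 without Libramed ZT0 replicate 2 or 3. At ZT12 it was 1 without vehicle ZT12 replicate 3 or Libramed ZT12 replicate 3. Fits over both times share their libraries with the fits at ZT0 and ZT12.

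**Figure D3:**
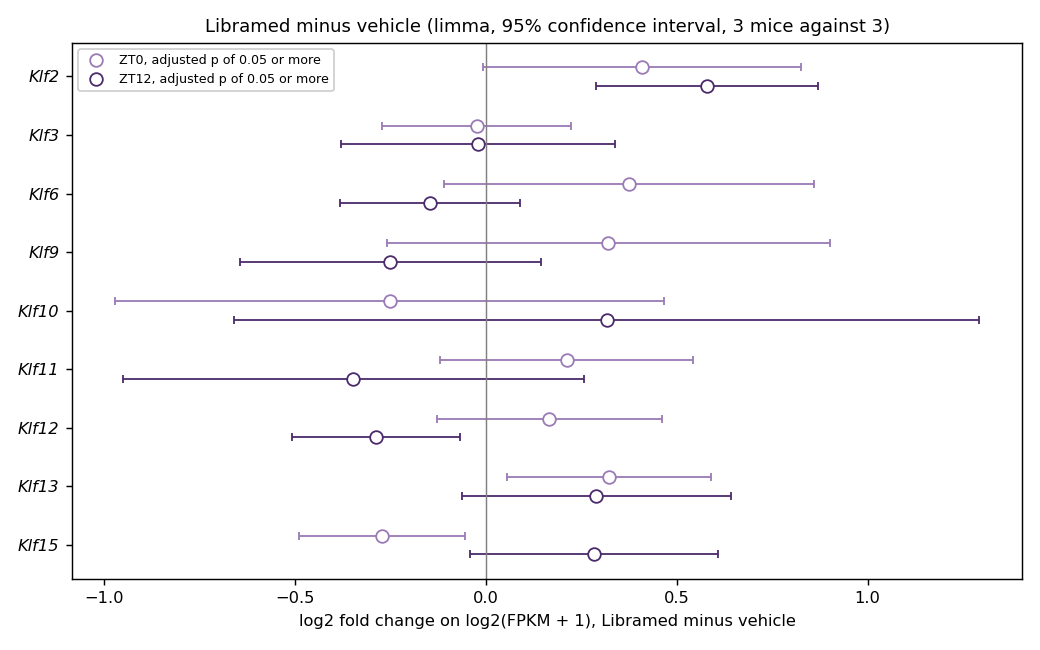
Log2 fold change on log2(FPKM + 1) of Libramed minus vehicle (horizontal axis) for the 9 tested members at ZT0 (light) and ZT12 (dark). Bars are 95% confidence intervals from limma with 3 mice against 3, and open circles have an adjusted p of 0.05 or more. Klf2 lies above 0 at both times (0.41 and 0.58), while Klf15 is at −0.27 at ZT0 and 0.28 at ZT12.

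Klf2, the flow-induced endothelial factor, measured 2.78, 2.08 and 2.02 FPKM at vehicle ZT12 and 3.55, 3.73 and 4.47 FPKM at Libramed ZT12. Vehicle ZT0 libraries measured 3.67, 1.97 and 3.05 FPKM, and Libramed ZT0 libraries 4.26, 3.49 and 4.57 FPKM. At ZT12 all Libramed libraries were above all vehicle libraries, a separation of groups found for 13.1% of all genes, and at ZT0 the groups overlapped by 1 library each. The mean ratio of Libramed over vehicle was 1.71 at ZT12 and 1.42 at ZT0. The log2 fold change at ZT12 was 0.58 (SE 0.122, limma p = 0.00218, adjusted p = 0.700, exact permutation p = 0.1, the smallest that 3 against 3 allow). Over both times it was 0.49 (SE 0.112, limma p = 0.000812, adjusted p = 0.259, exact permutation p = 0.01).

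Klf4, a relative of Klf2 in endothelium and epithelium, was too low for the tested set. It measured 0.294, 0.190 and 0.250 FPKM at vehicle ZT0 and 0.0853, 0.140 and 0.117 FPKM at vehicle ZT12. With Libramed it measured 0.317, 0.331 and 0.367 FPKM at ZT0 and 0.324, 0.434 and 0.337 FPKM at ZT12. All 6 Libramed libraries were above all 6 vehicle libraries, and the vehicle ZT12 libraries were the lowest. Among tested genes the groups did not overlap for 15.1% at ZT0 and 13.1% at ZT12. The mean Klf4 ratio of Libramed over vehicle was 3.20 at ZT12 and 1.39 at ZT0, and the exact permutation p of the difference in FPKM within times was 0.005, the smallest possible. Shares of all genes with that permutation p, or with 6 libraries above 6, were not computed. With no minimum FPKM, limma gave a log2 fold change of 0.20 over both times (adjusted p = 0.315 over 17070 genes). The number of reads behind values this low is unknown.

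Klf2 and Klf4 are best known from endothelial cells. Liver RNA mixes cell types, so fewer cells of a type and less RNA per cell cannot be told apart. The 10 endothelial markers were all detected, and their summed level ranged from 38.9 to 49.2 FPKM at vehicle ZT0, 22.2 to 32.4 at vehicle ZT12, 46.1 to 57.4 at Libramed ZT0 and 32.0 to 34.2 at Libramed ZT12. Clec4g and Eng led this sum, with means of 22.5 and 11.2 FPKM at vehicle ZT0. Of the 7 tested, all 7 were lower at ZT12, 6 of them with an adjusted p under 0.05 over both treatments, against 29.7% of all genes (median log2 fold change −0.42), including Clec4g (−0.76, limma adjusted p = 0.00112), Kdr (−0.46, 0.00124) and Cdh5 (−0.51, 0.00324). With Libramed over both times all 7 tested markers were higher, with a median of 0.20 beside −0.02 over all genes, and none was called (1 with p under 0.05, against 10.1% of all genes). The markers under 1 FPKM were mixed. At ZT0 mean Lyve1 was lower with Libramed than with vehicle (0.33 against 0.91 FPKM), and Tek (1.16 against 0.79) and Vwf (0.67 against 0.55) were higher. At ZT12 Vwf was lower (0.44 against 0.50), Tek was higher (0.63 against 0.42), and Lyve1 was 0.34 against 0.33. Klf2 was not called over time, and the part of endothelial RNA in the Klf2 and Klf4 values was not tested. Of 4 genes linked to KLF2 in endothelium (Nos3, Thbd, S1pr1 and Cyp1b1), S1pr1 alone reached 1 FPKM, and its log2 fold change with Libramed over both times was −0.12 (limma adjusted p = 0.623).

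**Figure D4:**
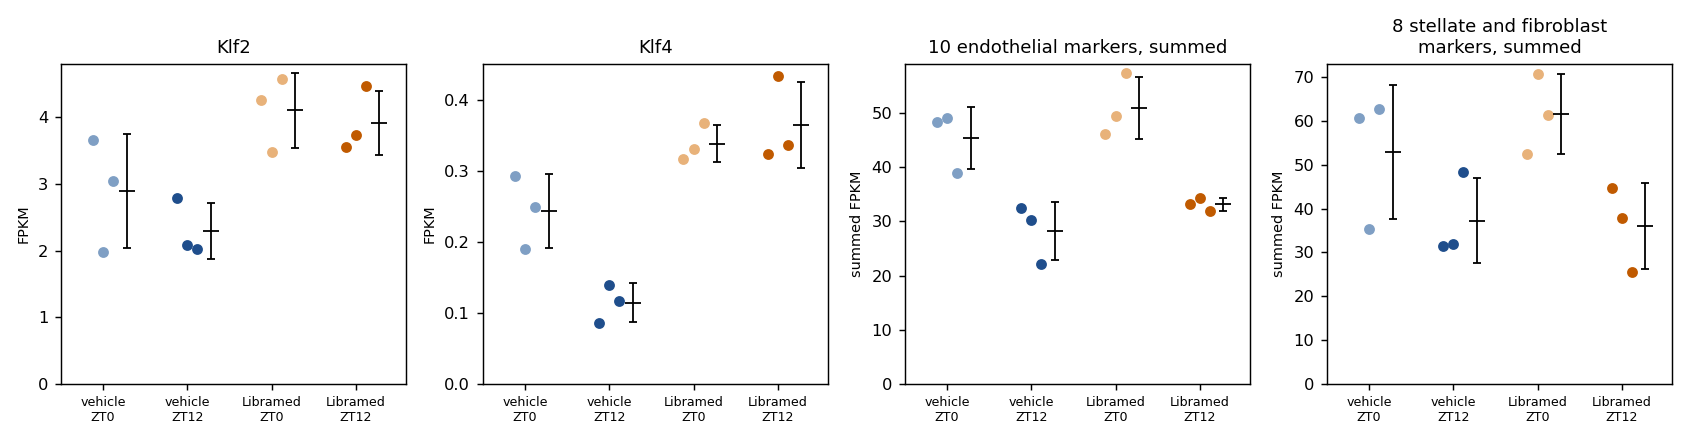
FPKM of Klf2 and Klf4 and summed FPKM of 10 endothelial and 8 stellate and fibroblast markers (vertical axes from 0) in the 4 groups, with dots for libraries and black marks for mean and SD (n = 3). In each treatment the median of both marker sums is lower at ZT12, but the stellate and fibroblast sums with vehicle overlap (35.3 to 62.8 against 31.5 to 48.4 FPKM). Klf2 and Klf4 are higher with Libramed than with vehicle at ZT12 (means 3.92 against 2.30 FPKM and 0.365 against 0.114 FPKM). The endothelial sums there are 32.0 to 34.2 FPKM with Libramed and 22.2 to 32.4 FPKM with vehicle.

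Stellate and fibroblast markers, in which KLF6 is known to be induced on activation, were also lower at ZT12. Their sum ranged from 35.3 to 62.8 FPKM at vehicle ZT0, 31.5 to 48.4 at vehicle ZT12, 52.5 to 70.8 at Libramed ZT0 and 25.5 to 44.7 at Libramed ZT12. Dcn led this sum, with a mean of 41.85 FPKM at vehicle ZT0. All 7 tested markers were lower, 6 of them with an adjusted p under 0.05 over both treatments, against 29.7% of all genes (median log2 fold change −0.57). Among them Lrat, Pdgfrb and Rgs5 averaged under 1 FPKM at ZT12 in both treatments, so they passed the minimum mean only through ZT0. Klf6 was lower by 0.59 over both treatments, and the part of stellate and fibroblast RNA in that fall was not tested. Macrophage markers showed no called change by time, and 4 of 6 were lower with Libramed at ZT0 with p under 0.05, against 9.23% of all genes (sums of 24.7 to 39.8 FPKM against 43.4 to 51.1). Lymphocyte markers summed to at most 2.29 FPKM and none was tested. Their sum ranged from 1.23 to 1.78 FPKM at vehicle ZT0 and 0.634 to 1.42 at vehicle ZT12. With Libramed it ranged from 1.75 to 2.29 at ZT0 and 0.852 to 2.05 at ZT12. Of the blood markers Alas2 was in the table under its own symbol, at 59.4 to 99.6 FPKM.

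Klf13 and Klf15 had p under 0.05 for Libramed at ZT0. Klf13 was higher there, at 3.98 to 4.52 FPKM against 2.67 to 3.72 FPKM (log2 fold change 0.32, SE 0.113, limma adjusted p = 0.513), without overlap, a separation found for 15.1% of all genes. Over both times its log2 fold change was 0.31 (SE 0.0934, limma p = 0.00652, adjusted p = 0.362, exact permutation p = 0.02). Klf15 was lower at ZT0 (log2 fold change −0.27, SE 0.0921, limma p = 0.0210, adjusted p = 0.502, exact permutation p = 0.1), with no overlap between the groups. At ZT12 its log2 fold change was 0.28 (95% interval −0.04 to 0.61, limma adjusted p = 0.729), and over both times it was 0.01 (95% interval −0.24 to 0.25). Klf12 was lower with Libramed at ZT12, at 1.65 to 1.96 FPKM against 2.15 to 2.64 FPKM (log2 fold change −0.29, SE 0.0926, limma adjusted p = 0.729). Over both times the 95% interval of the difference was −0.22 to 0.18 for Klf3 and −0.58 to 0.65 for Klf10.

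The third question is whether the change from ZT0 to ZT12 differed between treatments. The interaction called 0 of 9 members and 0.00% of all genes, and 2 of 9 members had p under 0.05, against 6.63% of all genes. The change of Klf15 was more positive with Libramed by 0.55 on the log2 scale (SE 0.169, limma p = 0.00718, adjusted p = 0.560, exact permutation p = 0.01). The change of Klf12 was more negative with Libramed by a log2 difference of −0.45 (SE 0.157, limma p = 0.0144, adjusted p = 0.656, exact permutation p = 0.02). For the interaction the permutation shuffled treatment within times, so its p assumes no effect of Libramed at either time. It is not an exact test of equal changes. For Klf13 the difference was −0.03 (95% interval −0.46 to 0.39). For Klf6 and Klf11, called with Libramed only, the difference between treatments was −0.52 (95% interval −1.07 to 0.02, limma adjusted p = 0.755) and −0.56 (95% interval −1.25 to 0.13, limma adjusted p = 0.801), so a difference between treatments was not shown.

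Genes linked to KLF15 were examined next to it, as 12 genes of amino acid and glucose metabolism. From ZT0 to ZT12, 10 were higher with vehicle (2 called) and 11 with Libramed (8 called), with medians of 0.31 and 0.88, against 10.4% and 12.4% of all genes called. Leading examples with Libramed were Gpt2, the mitochondrial alanine aminotransferase (log2 fold change 1.07, limma adjusted p = 0.00203), Prodh, the proline dehydrogenase (1.18, 0.00235), G6pc, the glucose-6-phosphatase (1.84, 0.00440), and Tat, the tyrosine aminotransferase (1.41, 0.00440). Tat had a log2 fold change of −0.19 with vehicle. The interaction was positive for all 12 genes, with a median of 0.26 beside 0.00 over all genes, and 2 had p under 0.05, against 6.63% of all genes, and none an adjusted p under 0.05 (Tat, log2 difference 1.60, limma adjusted p = 0.519, and Sds, the serine dehydratase, 1.11, limma adjusted p = 0.522). At ZT0, 8 of the 12 were lower with Libramed, with a median of −0.08, and 1 had p under 0.05 (Tat, log2 fold change −0.64, limma adjusted p = 0.469), against 9.23% of all genes. At ZT12, 11 of the 12 were higher with Libramed, with a median of 0.27, and 6 had p under 0.05, against 6.74% of all genes. No listed gene was called at either time.

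**Figure D5:**
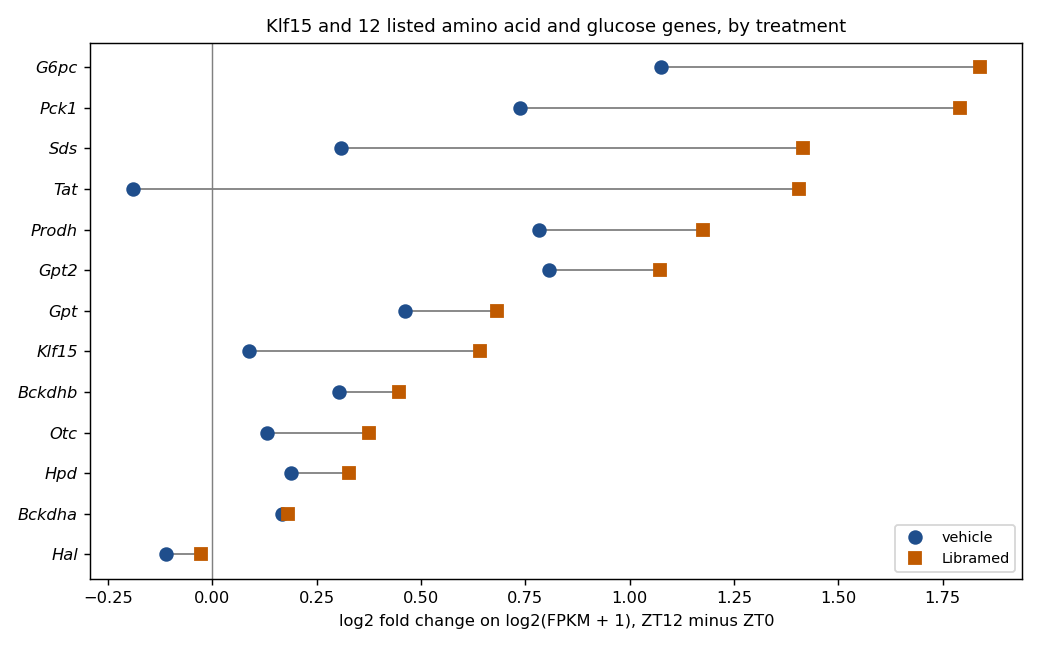
Log2 fold change on log2(FPKM + 1) from ZT0 to ZT12 (horizontal axis) for Klf15 and 12 amino acid and glucose genes, with vehicle (blue circles) and Libramed (orange squares) joined by a line. Each point comes from 3 mice against 3. All 12 listed genes lie further right with Libramed, from Bckdha with the smallest gap to Tat with the largest.

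Glucocorticoid-induced genes were listed because Klf9 and Klf15 are known targets of the receptor. Of 10 such genes, 8 were higher at ZT12 with vehicle (2 called) and 10 with Libramed (7 called), against 10.4% and 12.4% of all genes called. The interaction was positive for 9 of 10 genes, 3 with p under 0.05 against 6.63% of all genes, and none was called. At ZT0, 8 of the 10 were lower with Libramed (1 with p under 0.05, against 9.23% of all genes). At ZT12, 8 were higher (2 with p under 0.05, against 6.74%), and none was called at either time. Mt2, a metallothionein, had the smallest p with Libramed (log2 fold change 4.99, limma adjusted p = 0.000470), followed by Zbtb16 (2.34, 0.00104) and Per1 (2.39, 0.00104). With Libramed Klf15 was called higher at ZT12, whereas Klf9 had a log2 fold change of −0.35.

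Immediate early genes were listed beside Klf2, Klf4, Klf6 and Klf10, which are themselves quickly inducible. Of 12, 7 were tested, and with Libramed all 7 were lower at ZT12, 2 of them called against 12.4% of all genes (Junb, log2 fold change −1.09, limma adjusted p = 0.0198, and Egr1, −2.02, 0.0469). The fall was not uniform, as the median was −0.15 and Btg2 (−0.03) and Myc (−0.01) lay close to no change. With vehicle 4 were higher and 3 lower, none called. At ZT0 Ier2 (0.77, limma adjusted p = 0.222), Egr1 (2.01, limma adjusted p = 0.324) and Jun (0.63, limma adjusted p = 0.506) had the smallest p for Libramed, with more FPKM than with vehicle and without a call.

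Genes for proteins that share sites or partners with KLFs were counted in the same way. Of the 6 other KLF and SP genes tested, Sp1, Sp2 and Sp5 fell from ZT0 to ZT12 over both treatments, where 29.7% of all genes were called. Sp1, the general GC box activator, fell by 0.38 (SE 0.0496, limma adjusted p = 0.000174), with means of 4.15 FPKM at ZT0 and 2.96 at ZT12 in vehicle mice and of 3.94 and 2.80 in Libramed mice. Of 12 tested cofactors and modifiers, 3 were called over both treatments, a share near the 29.7% of all genes called in that comparison. Wwp1, a ubiquitin ligase, rose by 0.43 (limma adjusted p = 0.000453) and Hdac1, a histone deacetylase, by 0.20 (0.0343), while Sin3a, the corepressor used by KLF9, KLF10, KLF11 and KLF13, fell by 0.19 (0.0358). No cofactor was called for Libramed at either time or over both times, or for the interaction.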

How the data were processed

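Liver RNA of 12 mice (3 per group, groups from the sample labels) was sequenced as single-end reads of 100 cycles. According to the methods, the authors aligned reads to mm10 and UCSC splice junctions with ELAND, kept unique matches and gave RPKM. The submitters' processing notes name TopHat and Cuffnorm, and the deposited table holds FPKM per gene and library. The methods describe a stranded kit and the labels TruSeq RNA v2. Which pipeline made the table could not be settled here. Counts were not used.

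Of 24138 lines, 289 repeat a symbol, and of these the most expressed line was retained. The 9806 genes that averaged 1 FPKM or more were tested with limma 3.58.1 in R 4.3.3 (lmFit, eBayes with trend) on log2(FPKM + 1), two-sided, with Benjamini-Hochberg adjustment over all genes. A gene under 1 FPKM in some groups could reach the minimum mean through the others. Pairwise comparisons were fitted on 6 libraries, the others on 12 (7 comparisons in all). Single genes were also tested by exact permutation, with 20 arrangements for 3 against 3 (smallest p 0.1) or 400 within treatments or times (smallest p 0.005). P-values measure the spread between mice. Levels used for ratios are group means of FPKM. The calculations were tested on simulated data.

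Each member was named with its values, and statistics were given for p under 0.05 or groups that did not overlap. Listed genes named are those with the smallest p, and genes most like a member are among the 3 with the highest Pearson r, of which some are not reported here. Members and lists were chosen with earlier results of these data known. Coordinates are of GENCODE vM21 on mm10. Promoters matched 9 of 10 members in RefSeq (GRCm38.p6). Alternatives were a pseudocount of 0.1, no minimum or a minimum mean of 5 FPKM, limma without trend, median-ratio or quantile scaling, a fit over 12 libraries, the replicate number as a block, a Cyber-T style test (window of 101 genes, prior weight 10), and each library left out in turn.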

Additional observations from a re-analysis of the deposited data

Results flagged for a closer look

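The change from ZT0 to ZT12 differed between treatments for Klf15 and Klf12 by the interaction test at p under 0.05, which is why both are listed here. For Klf15 the change with Libramed minus that with vehicle was 0.55 on the log2 scale (limma p = 0.00718, exact permutation p = 0.01). For Klf12 it was −0.45 (limma p = 0.0144, exact permutation p = 0.02). Neither passed adjustment over all genes (adjusted p = 0.560 and 0.656, limma). Both permutation p-values assume no effect of Libramed at either time, so they are not exact tests of the interaction. In each alternative run, including each library left out in turn, Klf15 stayed between 0.41 and 0.64 and Klf12 between −0.63 and −0.38.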

How the results depend on the processing

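The alternatives gave 342 values of single members. They cover only members with p under 0.05 or groups without overlap in the main fit, where a change of direction was unlikely. None of the 342 values changed direction. Of these, 318 stayed on the same side of the adjusted threshold, 18 lost a call and 6 gained one. The count of 4 members called with Libramed over time was 2 with no minimum FPKM and 2 with a minimum mean of 5 FPKM, which leaves Klf2, Klf6, Klf11 and Klf12 untested. It ranged from 2 to 4 with 1 library left out, and was 2 without Libramed ZT0 replicate 2 or without Libramed ZT0 replicate 3. The count of 4 over both treatments was 2 with the minimum mean of 5 FPKM and ranged from 3 to 5 with 1 library left out. Klf15 over both treatments also lost its call with no minimum FPKM (adjusted p = 0.0513) and under quantile normalization (adjusted p = 0.0528). Klf10 with Libramed was called by the Cyber-T style test (adjusted p = 0.00904), and Klf12 with Libramed in the fit over 12 libraries (adjusted p = 0.0364). The causes of these changes were not tested. No treatment or interaction call appeared under any alternative. Scaling moved the median of all genes by at most 0.02 on the log2 scale. FPKM without read totals gives no counting error, which limits Klf4 and Klf6 most.

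Samples share only replicate numbers. Of 18 same-number pairs, 4 had correlated deviations over 0.1 (range −0.28 to 0.34), and 3 correlated best with their own number. With the replicate number as a block, members called were 1 with vehicle over time, 3 with Libramed (Klf11 lost, adjusted p = 0.0751), 4 over both treatments and 0 for treatment and interaction. Members with p under 0.05 for Libramed were 4 with the block and 2 without it at ZT0, and 5 and 2 at ZT12. The shares of all genes with the block were not computed, so these counts have no background beside them. With no minimum FPKM the vehicle count over time at p under 0.05 was 2 in place of 1. By the Cyber-T style test the counts at p under 0.05 were 8 in place of 7 for Libramed over time. They were 3 in place of 2 at ZT0 and at ZT12, and the shares of all genes by that test were not computed. With the minimum mean of 5 FPKM, which tests 5 members, counts at p under 0.05 were 4 in place of 7 (Libramed over time), 3 in place of 5 (both treatments), 0 in place of 2 (ZT12), 1 in place of 2 (both times) and 1 in place of 2 (interaction). Shares of all genes were not computed for the other alternatives either.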
